A study of Pimephales promelas with 26 samples.

Results

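The 4 transcripts described here encode proteins of the lysosome and of autophagy in the fathead minnow (Pimephales promelas), a small freshwater fish used in toxicity testing. They are those of lamp1a (XM_039646994.1) and cd63 (XM_039652075.1), which encode proteins of the lysosomal membrane, of pla2g15 (XM_039647902.1), which encodes the lysosomal phospholipase A2, and of sqstm1 (XM_039653746.1), which encodes an autophagy receptor. They were taken by accession, 4 of the 57299 transcripts in the deposited count table, and all 4 passed the filter on low counts. Which comparison they were proposed from is not stated. It was taken to be that of the highest concentration with water, and whether results at lower concentrations were also in view is not known. In the authors' deposited table for that concentration their adjusted p-values were 0.00117 (lamp1a), 0.00783 (pla2g15), 0.0177 (cd63) and 0.0424 (sqstm1). Their values at that concentration are therefore a description, given with no test.

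Whole larvae were sampled 7 days after fertilization. From 6 hours after fertilization they had been kept in water with fluoxetine, a drug against depression that acts on the serotonin transporter. The water control and the groups at 0.74, 3.38 and 10.2 µg/L (measured fluoxetine concentrations) held 5 libraries each, and those at 0.19 and 47.2 µg/L held 3 each. Each of the 26 libraries was made from messenger RNA, selected by its poly(A) tail, of 1 pool of 20 larvae, and per the labels' protocols each replicate was a dish of its own embryos. The labels name no strain and no sex, and a pool of whole animals averages all tissues. Markers of muscle, lens, blood, liver, pancreas, gut and nervous tissue were present, with 19 of 23 found in the table and none of these at 0 in all libraries. Total estimated counts ranged from 13515478 to 27614956 per library. The members had between 825 and 6513 counts in every library, far above the floor of 3 counts.

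The lysosome is the acidic compartment in which cells digest material taken up from outside and material delivered by autophagy, the pathway by which a cell encloses its own components. LAMP1 is a heavily glycosylated protein that lines its membrane, and CD63 is a tetraspanin of late endosomes, lysosomes and the vesicles released from them. PLA2G15 cleaves phospholipids inside the lysosome, and SQSTM1, also called p62, carries ubiquitin-tagged cargo into autophagosomes and is itself degraded there, as known from mammals. Fluoxetine belongs to the cationic amphiphilic drugs, weak bases that gather in acidic lysosomes, and drugs of this kind are known in mammals to inhibit PLA2G15 and to cause phospholipid storage.

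All 4 transcripts had their highest group mean at 47.2 µg/L. The fold over water was 1.65 for lamp1a, 1.44 for cd63, 1.42 for pla2g15 and 2.02 for sqstm1. At 0.19, 0.74, 3.38 and 10.2 µg/L, where they were tested, none of them passed the test. The size of the difference at 47.2 µg/L depended on 1 of its 3 pools, replicate A, which was the highest for each of the 4. Without that pool the log2 fold change fell most for sqstm1, from 1.01 to 0.34, and least for cd63, from 0.53 to 0.39. It was 0.49 in place of 0.73 for lamp1a and 0.27 in place of 0.50 for pla2g15. Levels below are CPM, counts scaled to a common library total, which compare 1 transcript between libraries. Log2 fold changes are over water, with their standard error (SE). Except for values of the authors, the SE comes from the fit of all 26 libraries, in which the 6 groups share 1 estimate of spread. It does not measure the spread of the 3 pools at 47.2 µg/L alone. In a pool of whole animals, more cells of a type and more RNA per cell cannot be told apart.

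**Figure D1:**
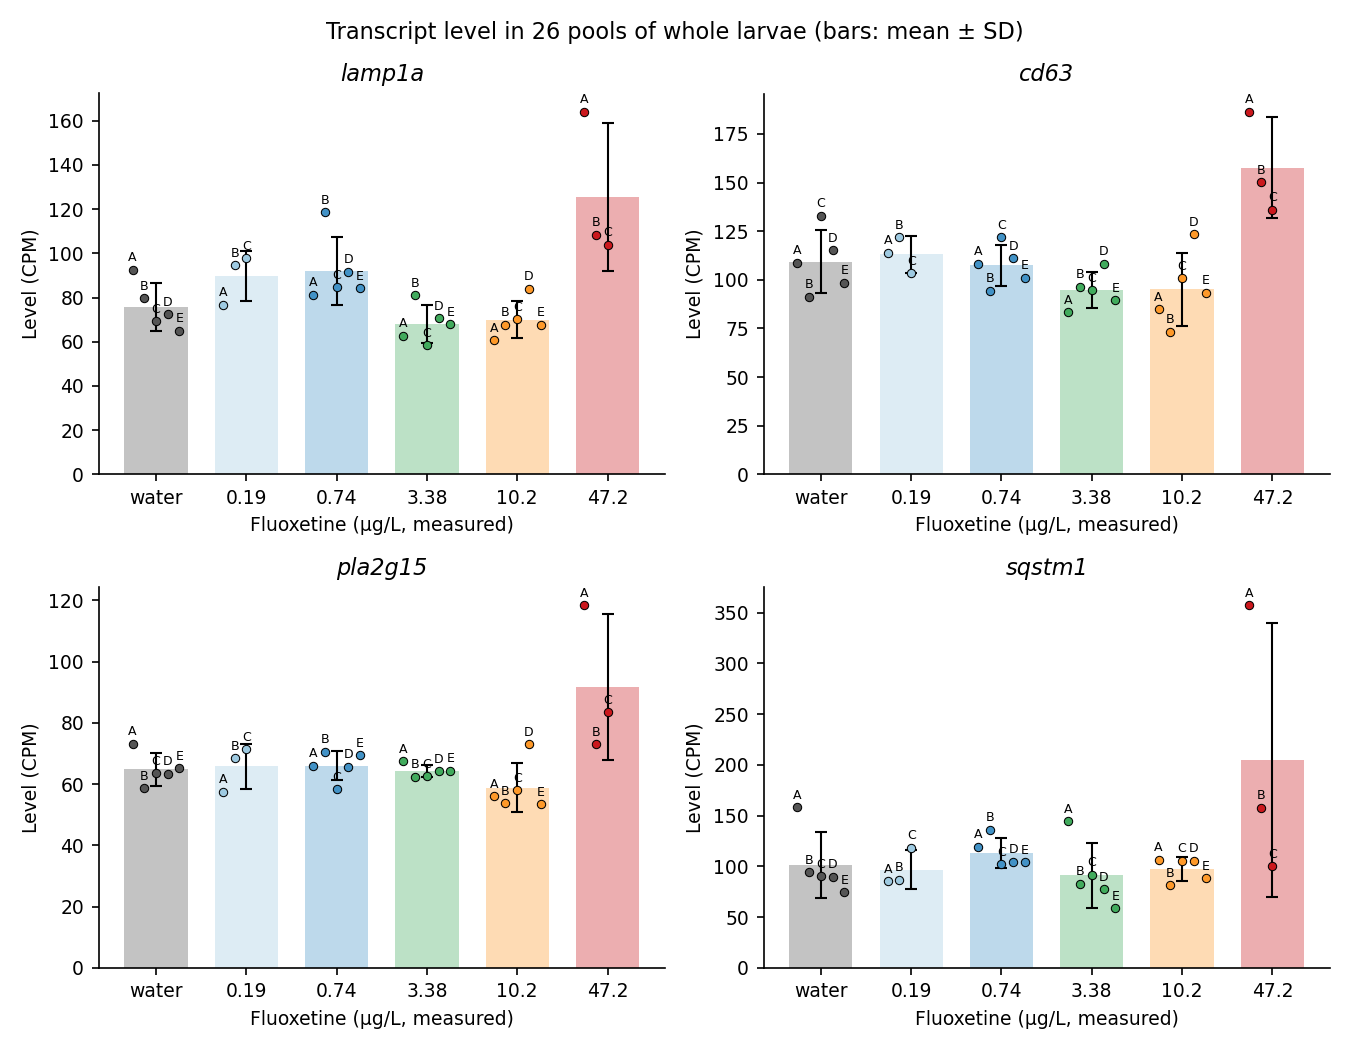
Levels of the 4 transcripts in CPM (vertical axes, linear from 0) in each of the 26 pools, by measured fluoxetine concentration in µg/L (horizontal axes). Bars are group means, whiskers are SD, and points are single pools with their replicate letters. Replicate A is the highest of the 3 pools at 47.2 µg/L in each panel, with 357.3 CPM of sqstm1 as the most extreme value.

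The lamp1a transcript, for the lysosomal membrane glycoprotein, had 92.6, 79.8, 69.3, 72.3 and 64.9 CPM in the water pools (replicates A to E). It had 76.8, 94.6 and 97.7 CPM at 0.19 µg/L and 81.3, 118.5, 84.7, 91.7 and 84.1 CPM at 0.74 µg/L. Most pools at these low concentrations lay in the upper part of the water range or above it. At 3.38 µg/L the values were 62.8, 81.1, 58.5, 70.5 and 67.8 CPM, at 10.2 µg/L 60.8, 67.6, 70.1, 83.9 and 67.7 CPM, and at 47.2 µg/L 164.1, 108.4 and 103.9 CPM. Every pool at 47.2 µg/L lay above every water pool, which 3.47% of all 43837 transcripts tested did, whereas the pools at 3.38 and 10.2 µg/L lay within the water range or just below it. The mean was 125.5 ± 33.5 CPM at 47.2 µg/L (SD, n = 3) and 75.8 ± 10.8 CPM in water (SD, n = 5), a log2 fold change of 0.73 ± 0.15 (SE). Without replicate A at 47.2 µg/L it was 0.49.

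The cd63 transcript, for the tetraspanin, had 108.9, 91.4, 133, 115.3 and 98.5 CPM in water. At 0.19 µg/L the pools had 113.9, 122.1 and 103.4 CPM, and at 0.74 µg/L 108.4, 94.4, 122.1, 111.1 and 101.1 CPM. All 8 of these pools lay inside the water range. At 3.38 µg/L there were 83.5, 96.5, 94.8, 108.4 and 89.6 CPM, at 10.2 µg/L 85.0, 73.3, 100.8, 123.5 and 93.4 CPM, and at 47.2 µg/L 186.5, 150.2 and 136.1 CPM. Some pools at 3.38 and 10.2 µg/L fell below the lowest water pool, and all those at 47.2 µg/L lay above the highest. The mean was 157.6 ± 26 CPM at 47.2 µg/L (SD, n = 3) and 109.4 ± 16.1 CPM in water (SD, n = 5), a log2 fold change of 0.53 ± 0.14 (SE), or 0.39 without replicate A at 47.2 µg/L.

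The pla2g15 transcript, for the lysosomal phospholipase, had 73.2, 58.6, 63.5, 63.4 and 65.1 CPM in water. There were 57.5, 68.5 and 71.4 CPM at 0.19 µg/L, 66.0, 70.6, 58.3, 65.6 and 69.3 CPM at 0.74 µg/L, and 67.5, 62.4, 62.5, 64.3 and 64.4 CPM at 3.38 µg/L. These 3 groups kept close to water, and the 5 pools at 3.38 µg/L spanned the narrowest range, with a coefficient of variation of 3.18%. At 10.2 µg/L the pools had 56.0, 53.7, 58.0, 73.0 and 53.5 CPM, and at 47.2 µg/L 118.4, 73.0 and 83.5 CPM. At 10.2 µg/L 4 pools lay below the lowest water pool and replicate D stood apart from them. At 47.2 µg/L replicate B lay just below the highest water pool, so the groups overlapped. The mean was 91.7 ± 23.8 CPM at 47.2 µg/L (SD, n = 3) and 64.8 ± 5.33 CPM in water (SD, n = 5). The log2 fold change was 0.50 ± 0.12 (SE), and it was 0.27 without replicate A at 47.2 µg/L.

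The sqstm1 transcript, for the autophagy receptor, varied most between pools. It had 158.5, 94.3, 90.4, 89.7 and 74.8 CPM in water, 85.1, 86.7 and 118.5 CPM at 0.19 µg/L and 119.3, 136.1, 101.9, 104.5 and 103.9 CPM at 0.74 µg/L. Water replicate A was far above the other water pools. At 3.38 µg/L there were 144.2, 82.8, 91.9, 77.5 and 58.5 CPM, at 10.2 µg/L 106.7, 81.7, 105.6, 105.5 and 88.2 CPM, and at 47.2 µg/L 357.3, 157.7 and 100.2 CPM. At 47.2 µg/L, replicate A exceeded all other pools, replicate B was close to water replicate A, and replicate C lay inside the water range. The mean was 205.1 ± 134.9 CPM at 47.2 µg/L (SD, n = 3) and 101.5 ± 32.7 CPM in water (SD, n = 5). The log2 fold change was 1.01 ± 0.30 (SE), and it was 0.34 without replicate A at 47.2 µg/L. This SE rests on the spread shared by all groups, and the pools at 47.2 µg/L spread more widely than the water pools.

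**Figure D2:**
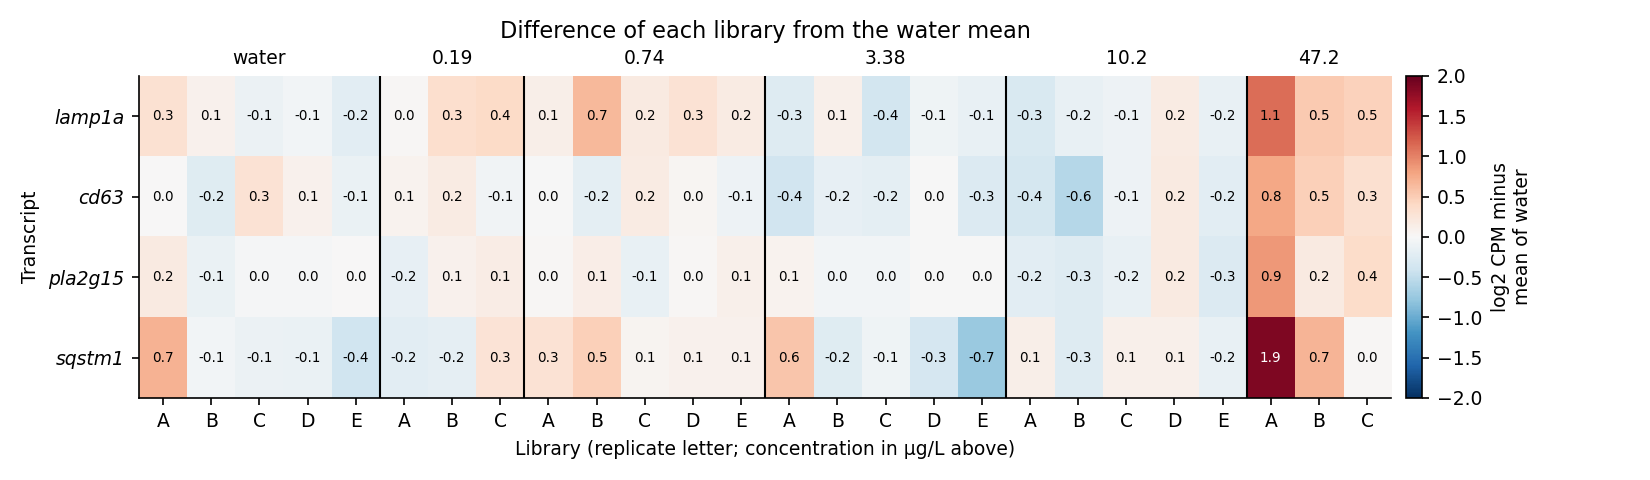
Difference of log2 CPM of each pool (columns, grouped by fluoxetine concentration in µg/L, with replicate letters) from the mean of the 5 water pools, for each transcript (rows). Red is above and blue below the water mean. The deepest red stands in replicate A at 47.2 µg/L, where sqstm1 lay 1.86 above the water mean.

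The order of the group means separated few neighbours beyond their spread. For cd63, the pools at 47.2 µg/L did not overlap those at 0.19 µg/L, the next highest mean. For pla2g15 they did not overlap those at 0.74 µg/L, its next highest mean. The share of all transcripts separated in this way was not counted. As the members were taken to be proposed from the highest concentration, nothing is read from these separations. For lamp1a and sqstm1 the next highest mean was at 0.74 µg/L, and there the pools overlapped those at 47.2 µg/L. Below the highest concentration, the pools of each pair of neighbours in the order overlapped for all 4 transcripts. The lowest mean was at 3.38 µg/L for lamp1a, cd63 and sqstm1 (68.1, 94.55 and 91 CPM) and at 10.2 µg/L for pla2g15 (58.8 CPM).

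At 0.19 µg/L the log2 fold change of lamp1a was 0.24 ± 0.16 (SE; edgeR adjusted p = 0.717), and at 0.74 µg/L one of 0.28 ± 0.14 (SE; edgeR adjusted p = 0.622, unadjusted p = 0.0511). When fragment length entered the fit as a covariate, the values were 0.08 at 0.19 µg/L and 0.06 at 0.74 µg/L. Fragment lengths ranged from 250.4 to 263.1 bases at 0.74 µg/L and from 248.2 to 257.5 bases at 0.19 µg/L, against 235.2 to 239.6 bases in water. As neither range overlaps that of water, this fit cannot tell fragment length and concentration apart. The other 3 transcripts had log2 fold changes from -0.07 to 0.16 at these 2 concentrations. Over all transcripts, edgeR called 0.0502% at 0.19 µg/L and 0.089% at 0.74 µg/L, so a count of 0 of 4 members is near that background.

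At 3.38 and 10.2 µg/L all 8 log2 fold changes of the members were negative, and none passed the test. Without water replicate A 3 of the 8 were positive, those of pla2g15 (0.04) and sqstm1 (0.06) at 3.38 µg/L and of sqstm1 at 10.2 µg/L (0.16), and with fragment length as a covariate pla2g15 at 3.38 µg/L was at 0.004. Those of cd63, the tetraspanin, were -0.21 ± 0.12 and -0.20 ± 0.12 (SE; edgeR adjusted p of 1 and 0.99). That of pla2g15 was -0.14 ± 0.11 at 10.2 µg/L (SE; 95% interval -0.36 to 0.08; edgeR adjusted p = 1) and -0.01 at 3.38 µg/L. The intervals of lamp1a reached from -0.44 to 0.13 at 3.38 µg/L and from -0.40 to 0.17 at 10.2 µg/L, and those of sqstm1 from -0.71 to 0.40 and from -0.61 to 0.50. At both concentrations edgeR called 0 of 43837 transcripts (0%), with 1829 and 2342 at an unadjusted p below 0.05, and DESeq2 called 71 and 104. All 5 comparisons share the same water pools, so the signs of a member's differences are not independent of one another.

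Because lamp1a was higher at 0.74 µg/L than at the next concentrations, those steps were tested in the same fit, a choice made after seeing the data. Every pool at 3.38 µg/L lay below every pool at 0.74 µg/L, which 2.78% of transcripts did. The log2 fold change was -0.43 ± 0.14 at 3.38 over 0.74 µg/L (SE; edgeR adjusted p = 0.111) and -0.39 ± 0.14 at 10.2 over 0.74 µg/L (SE; edgeR adjusted p = 0.138). Neither passed, while 1.41% and 2.03% of all transcripts did. The other members differed by -0.31 to -0.04 over both steps, with adjusted p of at least 0.512.

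At 47.2 µg/L edgeR called 45 of 43837 transcripts (0.103%), 32 of them higher. The count depended on single pools, at 8 when replicate A at 47.2 µg/L was left out and at 20, 24 or 17 when the water pool B, D or E was. It was 29 with no count filter and 182 with the replicate letter as a block. When edgeR was given only the water and 47.2 µg/L libraries it called 0, although 3258 had an unadjusted p below 0.05. In the authors' deposited table, made with another tool and on fewer transcripts, 2.49% had an adjusted p below 0.05 and all 4 members did. The log2 fold changes from both sources were nearly equal, for example 0.727 ± 0.159 (SE) for lamp1a and 1.02 ± 0.31 for sqstm1 in the authors' deposited table. As such calls were taken to be in view when the members were proposed, nothing is read from this count.

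Compared per length, as TPM, cd63 was the most abundant. Its mean over the 26 libraries was 171.2 TPM, rank 599 of 57299 transcripts, and it was the highest of the 4 members in all 26. The means were 73.9 TPM for sqstm1 (rank 1329), 61.6 TPM for lamp1a (rank 1609) and 45.5 TPM for pla2g15 (rank 2265), which was the lowest in 25 libraries. The order of sqstm1 and lamp1a was less even, with sqstm1 higher in 20 of 26. The estimated counts of sqstm1 were whole numbers in all 26 libraries, those of cd63 in 3, and those of lamp1a and pla2g15 in none (within 1e-06). Fractions can arise where kallisto, the tool named for the counts, divides reads between transcripts that share sequence, so values of cd63, lamp1a and pla2g15 may hold reads that also match another transcript. Each of the 4 genes had 1 transcript in the table that the gene annotation could pair with it.

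The spread between pools of 1 concentration was 0.43 (within-group SD of log2 CPM) for sqstm1, against 0.22 for lamp1a, 0.20 for cd63 and 0.17 for pla2g15. Replicate A was the highest pool for sqstm1 in 4 of the 6 groups, in 3 for pla2g15, in 2 for lamp1a and in 1 for cd63. At 47.2 µg/L the coefficient of variation was 65.8% for sqstm1, 26.7% for lamp1a, 25.9% for pla2g15 and 16.5% for cd63.

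Whether the members varied together between pools of 1 concentration was tested in the 23 libraries outside 47.2 µg/L, on deviations of log2 CPM from the group mean. Of the 6 pairs, lamp1a with pla2g15 gave r = 0.56 (permutation p = 0.0115, adjusted over 6 pairs 0.0345) and rho = 0.43 (permutation p = 0.0778, adjusted 0.233). The pair of pla2g15 and sqstm1 gave r = 0.48 (permutation p = 0.00705, adjusted 0.0345) and rho = 0.43 (permutation p = 0.0604, adjusted 0.233). Both thus passed by r and not by rho. Without the 2 libraries farthest from the median in the first-named transcript of each pair, r was 0.47 and 0.39. Distance in the other transcript was not used. Leaving out 1 library at a time gave r from 0.46 to 0.64 for lamp1a with pla2g15, where the adjusted permutation p rose to as much as 0.244, and from 0.35 to 0.55 for pla2g15 with sqstm1, where it rose to 0.148. For lamp1a with sqstm1, r was 0.34 and rho 0.35 (permutation p of 0.15 and 0.147, adjusted 0.301 and 0.295), and r was 0.06 without the 2 farthest libraries. The 3 pairs with cd63 gave r from -0.08 to 0.27 and rho from -0.17 to 0.07, with adjusted permutation p of at least 0.535. Whether the pairs of pla2g15 with lamp1a and sqstm1 passed thus depended on single pools, and no pair with cd63 passed. The permutations took no account of the replicate letter, although 25 of 26 libraries correlated best with their own letter over all transcripts.

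**Figure D3:**
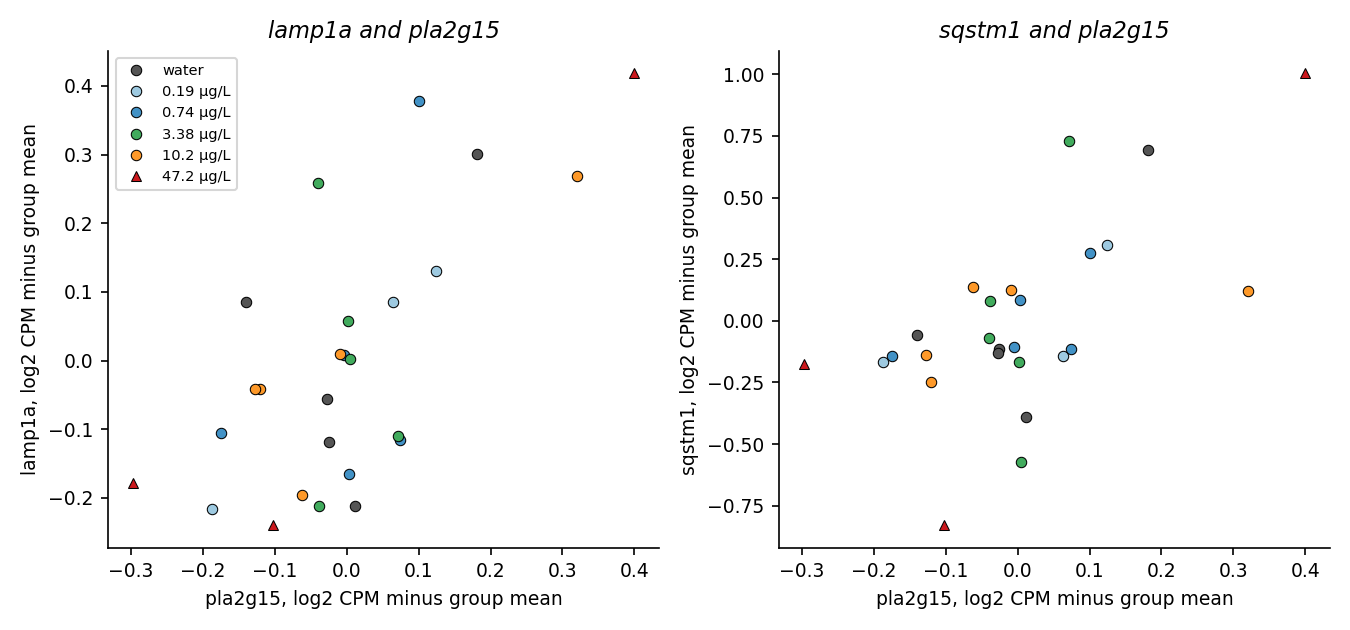
Deviation of log2 CPM from the group mean for pla2g15 (horizontal axes) against lamp1a (left) and sqstm1 (right), 1 point per pool, coloured by concentration in µg/L. Triangles are the 3 pools at 47.2 µg/L, which the correlations of 0.56 and 0.48 leave out, and replicate A at 47.2 µg/L is the point at the upper right of both panels.

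The transcripts most like each member were taken by Pearson's r of log2 CPM over the 26 libraries among 21446 candidates, as a description. For lamp1a they were those of the lysosomal proteases ctsba (r = 0.93), ctsd (r = 0.90) and tpp1 (r = 0.90), of the kinase nek7 (r = 0.91) and of the co-chaperone dnaja2a (r = 0.91). For cd63 they were cd164 (r = 0.88), for a sialomucin, ippk (r = 0.87), for a kinase of inositol phosphates, vps4b (r = 0.87), for an ATPase that releases the membrane-cutting ESCRT machinery, nmi (r = 0.86) and s100v2 (r = 0.86). The nearest to pla2g15 were nucb1 (r = 0.92), for a calcium-binding protein of the Golgi, vcp (r = 0.90), for an ATPase that extracts ubiquitin-tagged proteins, psmc3 (r = 0.90) and psmd6 (r = 0.89), for proteasome subunits, and rab1aa (r = 0.88), for a small GTPase of the secretory pathway. For sqstm1 they were chmp4ba (r = 0.93) and chmp5b (r = 0.91), for ESCRT subunits, slc30a4 (r = 0.92), for a zinc transporter, scamp3 (r = 0.91), for an endosomal membrane protein, and atg9b (r = 0.91), for an autophagy lipid scramblase. No member was among the 5 nearest of another. The closest pair was lamp1a and pla2g15 (r = 0.80), and lamp1a ranked 36 in likeness to pla2g15. These values share libraries and depth, and the pools at 47.2 µg/L weigh on all of them.

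Other genes of the same compartments were taken from lists without the 4 members. The lists were chosen with earlier results of these data known, so calls within them are a description. Of all 43837 transcripts tested, 3837, 3549, 1829, 2342 and 4097 had an unadjusted p below 0.05 from the lowest to the highest concentration. Of the 289 list transcripts 34, 39, 10, 19 and 59 did, and edgeR called none of the 289 at any concentration. DESeq2 called 3, 2, 0, 0 and 13, beside 1.27%, 1.08%, 0.162%, 0.237% and 1.7% of all transcripts. Those called at 0.19 and 0.74 µg/L were all lower, and at 47.2 µg/L 12 were higher and 1 lower. With the replicate letter as a block edgeR called 7 list transcripts at 47.2 µg/L, all higher, beside 0.415% of all transcripts. In the fits without 1 library edgeR called 0 or 1 list transcripts there. Transcripts were also summed per gene, where edgeR called 101 of 34679 genes at 47.2 µg/L (0.291%). Over all genes the median log2 fold change there was 0 and 49.9% of genes were positive. Of 45 lysosome membrane genes, 37 were positive with a median of 0.21, and none was called. At an unadjusted p below 0.05, 17 were higher and 0 lower, beside 6.07% higher and 5.61% lower of all genes. Transcripts of this list summed to 1756 CPM in replicate A at 47.2 µg/L, above the water range of 1310 to 1461 CPM. In replicates B and C they summed to 1427 and 1425 CPM, inside that range. Their mean log2 level lay 0.50, 0.09 and 0.20 above the water mean in A, B and C. The water pools ranged from -0.14 to 0.09 and the pools at 0.19 µg/L from -0.05 to 0.25. Replicates B and C at 47.2 µg/L thus lay inside the range at 0.19 µg/L. In this list the paralogs of lamp1a were lamp2 at 0.07 ± 0.08 (SE; edgeR adjusted p = 0.827) and lamp1b at -0.06 ± 0.23 (SE; edgeR adjusted p = 0.968), and the cholesterol exporter npc1 was at 0.30 ± 0.14 (SE; edgeR adjusted p = 0.4). Like the other genes of this and the following 3 paragraphs outside the rule stated with the processing, these were picked once their values were known.

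Of 22 genes of lysosomal lipid handling, 19 were positive with a median of 0.29, and 1 was called higher. This was ppt1, which removes fatty acids from proteins in the lysosome, with 28.5 ± 4.54 CPM at 47.2 µg/L (SD, n = 3) and 18.9 ± 1.01 CPM in water (SD, n = 5). It rose by 0.59 ± 0.13 on the log2 scale (SE; edgeR adjusted p = 0.0416). In fits that dropped 1 library at a time, a repeat chosen after seeing the data, ppt1 passed in 7 of 26, with log2 fold changes from 0.45 to 0.67 and an edgeR adjusted p of up to 0.306. The sphingolipid activator gene psap, with every pool at 47.2 µg/L above every water pool as for 3.8% of all genes, had 0.53 ± 0.12 (SE; edgeR adjusted p = 0.0661). The gene of lcat, a relative of pla2g15 that acts on plasma lipoproteins and neighbours it in assembly fPimPro1.hap1.1, had 0.60 ± 0.36 (SE; edgeR adjusted p = 0.537). In this list 12 genes were higher and 1 lower at an unadjusted p below 0.05. Transcripts of the list summed to 1191, 866.8 and 871 CPM in replicates A, B and C at 47.2 µg/L. In the water pools they summed to 670.6 to 784.8 CPM. The 5 pools at 0.74 µg/L, at 788.3 to 896.3 CPM, also lay above every water pool. Pools at 0.19 µg/L had 744.9 to 873.6 CPM, at 3.38 µg/L 673.7 to 766.4 and at 10.2 µg/L 682.5 to 802.5. At 0.74 µg/L 16 of the 22 genes were positive with a median of 0.14. There 4 were higher and 0 lower at an unadjusted p below 0.05, beside 5.05% higher of all genes.

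Of 50 autophagy genes, 39 were positive with a median of 0.15, and none was called, with 8 higher and 0 lower at an unadjusted p below 0.05. Transcripts of this list summed to 3713 CPM in replicate A at 47.2 µg/L, above the 2086 to 2876 CPM of water. In replicates B and C they summed to 2418 and 2325 CPM, inside that range. Of the cargo receptors beside sqstm1, optn had 0.57 ± 0.13 (SE; edgeR adjusted p = 0.0662), with every pool at 47.2 µg/L above every water pool, and nbr1a had 0.01 ± 0.15 (SE; edgeR adjusted p = 0.994). The genes of the LC3 family, whose products bind such receptors, had 0.13 ± 0.11 for map1lc3a and -0.04 ± 0.07 for gabarapa (SE). Among 27 tetraspanin and exosome genes the median was 0.09, and 1 was called. This was the tetraspanin tspan34a, with 54.8 ± 15.8 CPM at 47.2 µg/L (SD, n = 3), 27.4 ± 5.35 CPM in water (SD, n = 5) and a log2 fold change of 1.005 ± 0.201 (SE; edgeR adjusted p = 0.0318). It passed in 21 of 26 such fits and was lost without water replicate A, B or D or replicate A or B at 47.2 µg/L, with log2 fold changes from 0.73 to 1.13. The rise of tspan34a was among the earlier results of these data, so its call is no independent support. The tetraspanin gene cd9a had -0.13 ± 0.09 (SE). Transcripts of the tetraspanin and exosome list summed to 1768, 1752 and 1663 CPM in replicates A, B and C at 47.2 µg/L. All 3 lay above the 1487 to 1615 CPM of the water pools.

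Of 13 genes that regulate lysosome formation through MiT transcription factors and mTOR, 10 were positive with a median of 0.16. The transcription factor gene tfeb, which activates lysosomal genes in mammals, had -0.11 ± 0.13 (SE; edgeR adjusted p = 0.852), and flcn, a regulator upstream of it, had 0.55 ± 0.16 (SE; edgeR adjusted p = 0.166). Of 18 targets of Nrf2, the oxidative stress factor whose repressor SQSTM1 binds in mammals, 14 were positive with a median of 0.15. The 21 subunit genes of the vacuolar ATPase, the pump that acidifies the lysosome, had a median of -0.03 with 10 positive. None of these 3 lists held a called gene by edgeR. Transcripts of the regulators summed to 448.1, 347.6 and 342.7 CPM in replicates A, B and C at 47.2 µg/L, against 289.4 to 369.1 CPM in water. Those of the Nrf2 targets summed to 997.3, 1047 and 888.2 CPM, against 880.3 to 964.3 CPM in water. At an unadjusted p below 0.05, 2 regulators and 2 Nrf2 targets were higher and 0 lower, and 4 subunits were higher and 3 lower. For the vacuolar ATPase the medians at 0.19 and 0.74 µg/L were both -0.14, with 9 of 21 genes lower at an unadjusted p below 0.05 at each, beside 5.9% and 4.82% of all genes. With fragment length as a covariate, a fit added after seeing the data, the medians were -0.12 and -0.06, with 2 and 0 genes lower at an unadjusted p below 0.05, beside 2.94% and 1.46% of all genes. Fragment lengths of these groups did not overlap those of water, so the fit cannot tell fragment length and concentration apart.

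**Figure D4:**
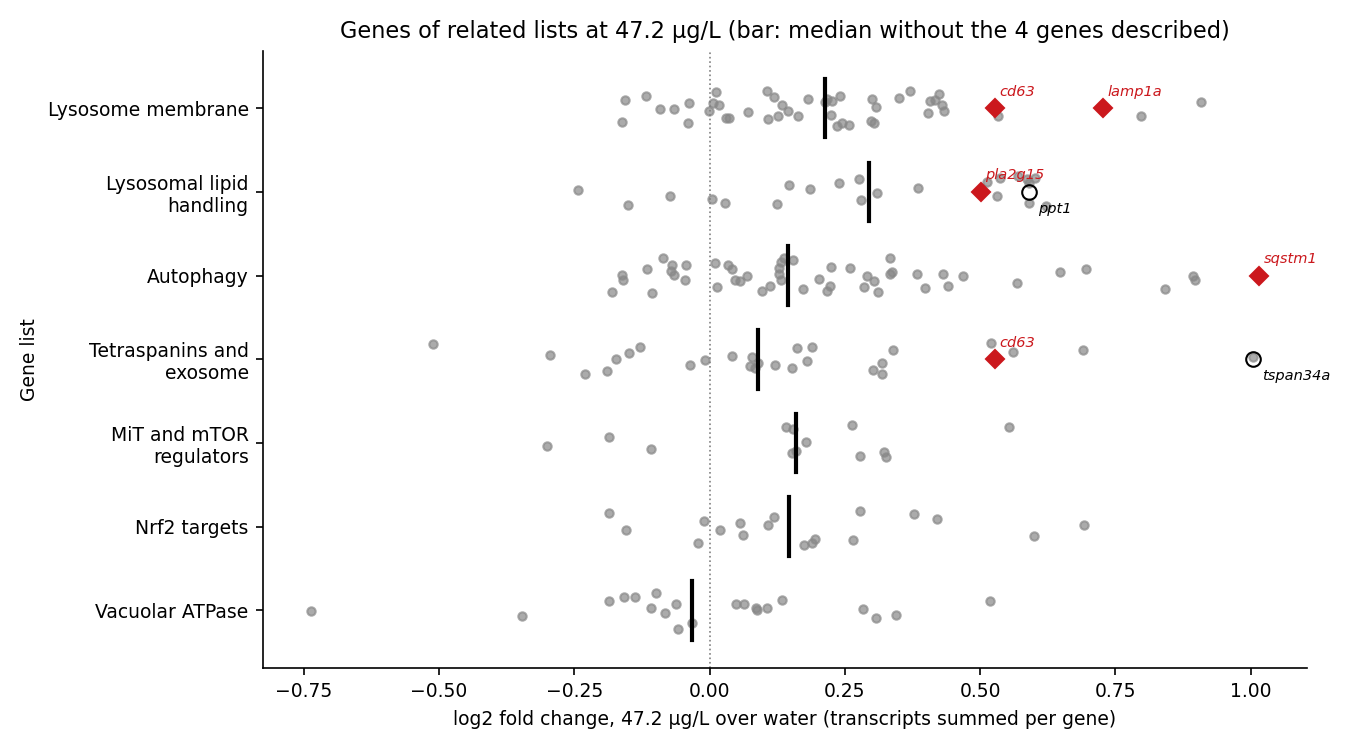
Log2 fold change at 47.2 µg/L over water (horizontal axis, transcripts summed per gene) for the genes of 7 lists (rows). Grey points are genes, black bars are list medians without the 4 genes described (red diamonds), and open circles mark the 2 called genes, ppt1 and tspan34a. The medians of lysosomal lipid handling (0.29) and of the lysosome membrane (0.21) lie furthest to the right.

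By single transcript, none of the list members with the largest changes at 47.2 µg/L was called. Among them were slc12a9 (3.36 ± 1.96, SE), spns1 (1.36 ± 1.26), mfsd8 (-1.38 ± 1.42), tecpr1b (-1.57 ± 2.41), atp6v0a1b (-1.59 ± 1.43), atp6v1aa (-1.08 ± 1.13) and atp6v0a2a (-0.93 ± 0.82). The slc12a9 transcript had 3.36 ± 5.83 CPM at 47.2 µg/L (SD, n = 3) and 0.322 ± 0.72 CPM in water (SD, n = 5). Isoforms of tax1bp1a, an autophagy receptor, differed by 2.16 ± 2.21 and 1.85 ± 1.96 (SE). Those of hgs, an ESCRT gene, differed by 1.89 ± 1.6, 1.75 ± 2.12 and -1.55 ± 2.21 (SE). With SEs of this size, the sign is not settled for any of these isoforms. The transcript of fnip2 had 1.21 ± 1.72 and that of fnip1 0.65 ± 0.51 (SE). Others were a transcript of nfe2l2a, the Nrf2 gene (1.07 ± 0.56, SE; 11.6 CPM at 47.2 µg/L and 5.5 CPM in water), arsa (0.62 ± 0.25), flcn (0.55 ± 0.16), lcat (0.60 ± 0.35) and one of ppt1 (0.97 ± 0.28). The adjusted p of these transcripts by edgeR ranged from 0.238 to 0.973.

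Markers of cells rich in lysosomes were counted in the same libraries. Of the macrophage markers, 16 of 26 were in the table and none of these was at 0 in all libraries. Of their 19 transcripts tested, 17 were positive with a median log2 fold change of 0.40, and none was called (3 higher and 0 lower at an unadjusted p below 0.05, beside 4.73% higher of all transcripts). Their summed level was 343.7 to 533 CPM at 47.2 µg/L and 189.8 to 387 CPM in water, mostly from apoeb, and without apoeb, a choice made after seeing the data, it was 103.5 to 146.9 CPM at 47.2 µg/L and 80.6 to 109.2 CPM in water. The mean log2 level of the macrophage list lay 0.52, 0.24 and 0.17 above the water mean in replicates A, B and C. The water pools ranged from -0.14 to 0.195. Replicate A was thus the highest by this measure. By summed level it was the lowest of the 3 (343.7 CPM in A, 533 in B and 516.1 in C). Neutrophil markers, 10 of 17 in the table, had 0 called and summed to 98.0 to 124.8 CPM at 47.2 µg/L and 71.5 to 107.9 CPM in water. Osteoclast markers, 7 of 9 in the table, had 0 called and summed to 75.4 to 98.0 CPM at 47.2 µg/L and 62.5 to 73.7 CPM in water. At 0.74 µg/L they summed to 72.0 to 79.1 CPM. Replicates B and C at 47.2 µg/L (76.6 and 75.4 CPM) lay inside that range. At an unadjusted p below 0.05, 1 transcript of each of these lists was higher and 0 lower.

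Lysosome-rich enterocytes are gut cells that take up and digest protein. Their markers, 8 of 10 in the table, summed to 374.7 to 506.4 CPM at 47.2 µg/L and 546 to 751.8 CPM in water, and these ranges did not overlap. None of their 11 transcripts was called by edgeR, while 4 had an unadjusted p below 0.05, all lower, as had 4.62% of all transcripts. For 3 of the 11, every pool at 47.2 µg/L lay below every water pool, as for 3.08% of all transcripts. The marker sums were 468.7 to 715.2 CPM at 0.19 µg/L, 583.2 to 788.4 at 0.74, 537.9 to 721.9 at 3.38 and 512.2 to 815.4 at 10.2. At 0.19, 3.38 and 10.2 µg/L the lowest pool thus also lay below the water range. By mean log2 level, the pools at 0.74 µg/L lay 0.233 to 0.557 above the water mean, beyond every water pool (-0.232 to 0.206). There 10 of the 11 transcripts were positive with a median log2 fold change of 0.25, and 0 had an unadjusted p below 0.05. The lowest pools at 3.38 and 10.2 µg/L (-0.474 and -0.605) lay inside the range at 47.2 µg/L (-0.869 to -0.314). The markers fabp6 and cubn had the highest means, 226 and 138 CPM. Pigment cell markers, 11 of 14 in the table, summed to 179.1 to 254.1 CPM at 47.2 µg/L and 172.2 to 270.9 CPM in water. The summed macrophage level was 234.4 to 490.3 CPM at 0.19 µg/L, 189.1 to 411.2 at 0.74, 211.7 to 356.4 at 3.38 and 172 to 394.3 at 10.2. Without apoeb it was 101.8 to 132.4 CPM at 0.19 µg/L, much as at 47.2 µg/L. At 0.19 µg/L 14 of the 19 macrophage transcripts were positive, with a median log2 fold change of 0.27. There 3 were higher and 0 lower at an unadjusted p below 0.05, beside 3837 of all 43837 transcripts in either direction. Summed per gene, 3 of 16 macrophage genes were higher and 0 lower at that threshold, beside 4.67% higher of all genes. The part of these cell types in the levels of lamp1a, cd63, pla2g15 and sqstm1 was not tested.

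**Figure D5:**
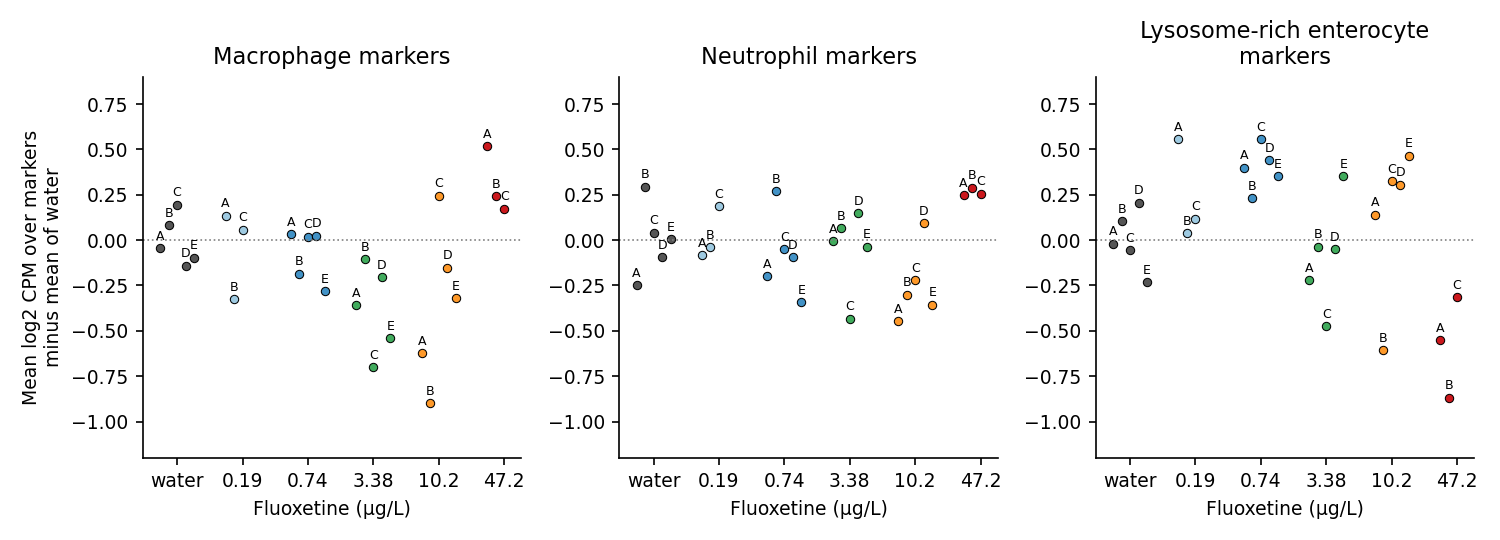
Mean log2 CPM over the markers of macrophages, neutrophils and lysosome-rich enterocytes in each pool, as the difference from the water mean (vertical axes), by fluoxetine concentration in µg/L (horizontal axes). Points are single pools with replicate letters. At 47.2 µg/L all 3 pools lie above the water mean for macrophage and neutrophil markers and below it for enterocyte markers. The neutrophil values (0.248 to 0.289) lie inside the range of the water pools (-0.249 to 0.295). For macrophages, replicate C (0.173) lies inside the water range (-0.14 to 0.195). The enterocyte values (-0.869 to -0.314) lie below the water range (-0.232 to 0.206). Those at 0.74 µg/L (0.233 to 0.557) lie above it.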

How the data were processed

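Trimmomatic 0.38, kallisto and DESeq2 are named in the submitters' processing notes. Settings, index, build and the versions of kallisto and DESeq2 are not stated there. The authors deposited estimated counts per RefSeq transcript for 26 libraries, with TPM, transcript lengths and effective lengths for each. Per the file headers, their comparison tables hold a mean of normalized counts (a signal), a log2 fold change with its SE, a test statistic (a score) and p-values. Shared reads are divided between transcripts, which blurs near-identical copies.

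Estimated counts were rounded, filtered with filterByExpr (99.9% of counts kept, 43837 transcripts) and scaled by TMM. A robust quasi-likelihood fit in edgeR 4.0.16 (R 4.3.3, limma 3.58.1) took all 26 libraries in 6 groups, and two-sided p-values were adjusted by Benjamini-Hochberg over all transcripts, with a call below 0.05. Intervals are 95%. Fragment length was the median of length minus effective length over transcripts of at least 3000 bases. DESeq2 1.42.0 was run as an alternative. Correlations used 100000 permutations within groups, or 20000 where 1 library was left out, in numpy 2.4.6 with ranks from scipy 1.17.1. Floors of 3 counts cover counting error only. The fit was also run on simulated data. Its power at folds like those of the members is not reported here.

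Symbols came from a gene table of assembly fPimPro1.hap1.1 (the authors' build is not known), matched without accession version (31554 of 57299 transcripts, 55.1%), so sums per gene cover paired transcripts and leave the others single. All 46 pairs of replicates differed by more than sampling noise (chi-square per degree of freedom at least 15.6). Named were the 4 members, per list each called transcript and up to 3 with the largest change at 47.2 µg/L and a mean of at least 1 CPM, and the 5 transcripts most like each member. Some transcripts that this rule selects are not reported here. The members and lists were chosen with earlier results of these data known. A planned search of proteins and promoters was not run, and no sequence or coordinate is given.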

Additional observations from a re-analysis of the deposited data

Results flagged for a closer look

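In 3 of the 16 sets of 5 pools examined (4 transcripts in the 4 groups of 5), 1 pool stood apart, its gap to the nearest pool exceeding 0.71 of the whole range. Chance gives about 1 in 20. The lamp1a level in replicate B at 0.74 µg/L was 118.5 CPM, with a gap of 0.72 of the range, and without that pool the log2 fold change over water was 0.17. The pla2g15 level in replicate D at 10.2 µg/L was 73.0 CPM (0.767 of the range), and without it the log2 fold change was -0.23. The sqstm1 level in water replicate A was 158.5 CPM (0.767 of the range), and without it the log2 fold changes were 0.15, 0.37, 0.06 and 0.16 from 0.19 to 10.2 µg/L. None of these values passed the test. Groups of 3 pools were not examined.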

How the results depend on the processing

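No member passed the test at 0.19, 0.74, 3.38 or 10.2 µg/L in any of the 26 fits without 1 library (edgeR adjusted p of at least 0.436) or under the other settings. At 47.2 µg/L, log2 fold changes without 1 library ranged from 0.49 to 0.84 for lamp1a, from 0.39 to 0.62 for cd63, from 0.27 to 0.64 for pla2g15 and from 0.34 to 1.34 for sqstm1. Counts of calls moved more. Without 1 library they ran from 6 to 26 at 0.19 µg/L, 12 to 43 at 0.74 µg/L, 0 to 1 at 3.38 µg/L, 0 to 2 at 10.2 µg/L and 8 (without replicate A at 47.2 µg/L) to 62 at 47.2 µg/L, and list transcripts called at 47.2 µg/L from 0 to 1. The counts of 22, 39 and 45 at 0.19, 0.74 and 47.2 µg/L without a count filter fell to 23 and 29 at the upper 2 of these. Summed per gene the count at 47.2 µg/L was 101 (2 in the lists). With fragment length as a covariate the counts at 0.19 and 0.74 µg/L, groups whose fragment lengths did not overlap those of water, were 3 and 1. With only the water and compared libraries fitted they were 2 at 0.19 µg/L and 0 at 47.2 µg/L (edgeR, 3258 at an unadjusted p below 0.05). DESeq2 called 558, 472, 71, 104 and 744 from 0.19 to 47.2 µg/L, with 3, 2 and 13 in the lists at 0.19, 0.74 and 47.2 µg/L. The cause was not tested.

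Same-lettered pools of different groups had r from -0.02 to 0.13 between their deviations (57 pairs, median 0.05, 8 over 0.1), and other-lettered pools from -0.10 to 0.06 (222 pairs, median -0.01, 0 over 0.1). The main fit did not pair the pools by letter, although 25 of 26 libraries correlated best with their own letter, a trace in the data that the design does not name. The main fit and the permutations within groups treated same-lettered pools as independent. Their p-values therefore take no account of the letter. With the replicate letter as a block, edgeR called 78, 103 and 182 transcripts at 0.19, 0.74 and 47.2 µg/L (0.178%, 0.235% and 0.415%), 7 in the lists at 47.2 µg/L, and no member at the 4 lower concentrations. The block gave 0.83 for sqstm1 at 47.2 µg/L (log2).

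Without 1 library, r ranged from 0.46 to 0.64 for lamp1a with pla2g15, from 0.35 to 0.55 for pla2g15 with sqstm1, from 0.14 to 0.53 for lamp1a with sqstm1, from -0.13 to 0.27 for lamp1a with cd63, from -0.14 to 0.40 for cd63 with pla2g15 and from -0.21 to 0.07 for cd63 with sqstm1. Groups of 3 pools and whole-animal RNA limit what can be seen.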
